A study of Mus musculus with 6 samples.

Results

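The complement genes described here in single cells of the mouse retina were 9: C1qa, C1qb and C1qc, which encode the chains of the initiator C1q, the central components C3 and C4b, and the inhibitors Serping1, Cfi, Cd55 and Cd59a. They were taken by name, as 9 of the 52636 genes counted, and followed across the 5 cell types that the authors assigned and across both genotypes. The study dissociated retinas of 12-month-old male C57BL/6J mice with papain, 3 of the genotype *Dram2* wt/wt and 3 of *Dram2* ko/ko, and captured single cells in droplets (10x Genomics 3′ kit). The ko/ko mice carry a constitutive deletion of exon 4 of *Dram2*, made by CRISPR/Cas9 in zygotes, and the wt/wt mice carry the intact gene on the same background. The third replicate of each genotype was processed in batch 1 and the other two of each in batch 2, as the labels give it.

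Complement is a cascade of blood and tissue proteins that marks surfaces for removal. In the classical pathway C1q binds a target, its partner proteases cut C4 and C2, and the enzyme formed cuts C3, whose fragments stay on the surface and are read by receptors on phagocytes. Serping1 (C1 inhibitor) blocks the first proteases, Cfi (factor I) cuts C4b and C3b once they are bound, Cd55 takes apart the enzymes that cut C3, and Cd59a stops the last step, the membrane attack complex. In the retina C1q is known as a product of microglia, where it takes part in the pruning of synapses, and the inhibitors are known to protect the cells of the retina and its vessels.

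The 3 C1q genes lie side by side on the minus strand of chromosome 4 (GRCm38, annotation GENCODE M21), within 18.7 kb from base 136880129 to base 136898803: C1qb (ENSMUSG00000036905), C1qc (ENSMUSG00000036896) and C1qa (ENSMUSG00000036887). Promoters of 5 of the 9 genes (C1qb, C1qc, C3, Cd55, Cd59a) were in the RefSeq table used, which is built on GRCm38.p6. The bases before the start of transcription are shown for the initiator and for the inhibitor with the most molecules whose window holds no annotated exon. Both are printed 5′ to 3′ on the strand of the gene, the first from chr4:136886201-136886450 (minus strand) and the second from chr2:104095551-104095800 (plus strand), and the capitals mark the letters GAGGAA, the core that the myeloid factor PU.1 and its relatives are known to bind.
C1qb: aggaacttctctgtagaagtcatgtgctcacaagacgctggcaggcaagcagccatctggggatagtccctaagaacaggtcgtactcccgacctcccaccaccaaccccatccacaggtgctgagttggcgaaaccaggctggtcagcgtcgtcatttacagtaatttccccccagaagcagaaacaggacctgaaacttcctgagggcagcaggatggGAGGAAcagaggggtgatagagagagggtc
Cd59a: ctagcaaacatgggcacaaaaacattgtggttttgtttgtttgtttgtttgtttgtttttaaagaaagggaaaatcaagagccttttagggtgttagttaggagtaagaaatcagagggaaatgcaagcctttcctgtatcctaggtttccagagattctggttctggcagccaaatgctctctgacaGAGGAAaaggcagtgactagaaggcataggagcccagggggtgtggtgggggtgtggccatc
Read on both strands, GAGGAA began at base -30 from the start of C1qb, at -193 from that of C1qc and at -62 from that of Cd59a, and was not among the letters of the C3 and Cd55 windows. The window of C1qc (bases 136892915 to 136893164) overlaps the gene as GENCODE M21 annotates it, which begins at base 136893065 on the minus strand, so its -193 holds for the RefSeq start alone. Of all 32851 windows of 250 bases in the table, 23.3% held it. The letters TTCNNNGAA, read by STAT factors, were in 0 of the 5 windows and in 7.02% of all. These are matches of letters and no sites of binding.

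Levels are given as CPM, the UMIs of a gene per 1000000 UMIs of the cells of a type or subclass in 1 retina, where a UMI (unique molecular identifier) marks 1 captured molecule. The 6 retinas held 3463728 to 6563762 UMIs in 7014 to 9242 cells. Of 46375 cells, 45746 carried a type: 42359 photoreceptors, 2083 interneurons, 942 glia, 246 mesenchymal cells and 116 cells of the retinal pigment epithelium (RPE). Mitochondrial UMIs took 0.405% to 0.720% in the 4 retinas of batch 2 against 3.22% (wt/wt) and 2.75% (ko/ko) in batch 1, so values within batches are given for the comparisons of genotypes that the results turn on. *Dram2* itself was counted at 27.8, 34.8 and 56.0 CPM in wt/wt and 27.4, 34.0 and 53.5 CPM in ko/ko retinas, which checks no label because a 3′ tag lies outside the deleted exon. The deposited types held the markers of their names, with the exception that the mesenchymal class mixed several kinds of cell. Over the retinas a microglia list of 16 genes ranged from 4905 to 23611 CPM in it and an endothelial list of 12 from 7510 to 16809 CPM. A pericyte list of 10 ranged from 2177 to 8238 CPM and a fibroblast list of 7, of which 3 were found, from 710 to 2022 CPM. In photoreceptors these lists reached at most 66.1, 204.2, 20.4 and 8.10 CPM, in the same order. A blood list ranged from 64.2 to 9994 CPM in the mesenchymal class. Its cells were split by these lists, none of which holds a complement gene, into 89 microglia-like, 113 endothelial-like, 25 pericyte-like and 19 other cells, where a cell needed at least 3 UMIs of a list and more of it than of the other lists together.

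C1q came from the microglia-like cells. In the mesenchymal class C1qa was counted at 4099, 4408 and 3044 CPM in wt/wt and 2086, 2998 and 1040 CPM in ko/ko retinas. In photoreceptors, the next type in order, it was at 8.03 ± 4.16 CPM (SD, n = 6), and the mesenchymal class was 367-fold higher. C1qb was 183-fold and C1qc 201-fold higher in the mesenchymal class than in the RPE, the next type for both, whose levels there rest on 3 and 2 UMIs. The mesenchymal class was the higher in all 6 retinas for each of the 3 genes, and the ranges of both types did not overlap, which was so for 17.8% of the 13760 genes with at least 100 UMIs when their own leading type was set against the next. Because the types were themselves clustered from these counts, the values are descriptions.

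Of 1792 C1qa UMIs in typed cells 89.8% lay in the mesenchymal class (exact binomial 95% interval 88.3% to 91.2%), with 87.9% of 1589 C1qb UMIs and 88.5% of 1349 C1qc UMIs. Within the class, 4198 of 4199 C1q UMIs lay in the 89 microglia-like cells, and the remaining UMI lay in 1 endothelial-like cell. A microglia-like cell held a median of 49 C1q UMIs and at most 113. All 3 genes were counted in 77 of the 89 cells and at least 1 of them in 81 (91.0%). Border macrophages, which sit along vessels and meninges, were little represented: the 7 genes of their list gave 57 UMIs in these cells against 8083 of the microglia list, and 4 cells held at least 3 of them. The retinas were unlike in this. Over the mesenchymal class the list was at 85.9, 10.7 and 0 CPM in wt/wt and 422.4, 210.4 and 0 CPM in ko/ko retinas. Its part in the comparisons of genotypes below was not tested.

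Outside the mesenchymal class C1q was counted in few cells of each type. Photoreceptors, which should lack C1q and had a median depth of 428 UMIs, held at least 1 C1q UMI in 438 of 42359 cells (1.03%), in 432 of them exactly 1. The share was 2.64% in interneurons and 2.55% in glia, whose median depths were 1844 and 1683 UMIs, and 3.45% in the RPE (4 of 116 cells, median depth 1121.5 UMIs). To set types of unlike depth side by side, cells with at least 500 UMIs were thinned to 500 and shallower cells were left out, which kept 16670 of the 42359 photoreceptors, 1999 of 2083 interneurons, 855 of 942 glia and 92 of 116 RPE cells. C1qa was then found in 0.295% of photoreceptors, 0.199% of interneurons, 0.277% of glia and 0.495% of RPE cells, against 88.0% of microglia-like cells. For C1qb the shares were 0.291%, 0.410%, 0.155% and 0.653%, and for C1qc 0.254%, 0.116%, 0.357% and 0.677%, in the same order. The 3 genes did not share an order among photoreceptors, interneurons and glia, and the RPE, the highest for each, rests on 6 UMIs. No typed cell outside the mesenchymal class held all 3 genes. C1qa, C1qb and C1qc made up 38.3%, 33.3% and 28.4% of the C1q UMIs in microglia-like cells and 35.5%, 34.8% and 29.7% in photoreceptors, where each interval (C1qa 31.1% to 40.1%) covered the microglia-like value.

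**Figure D1:**
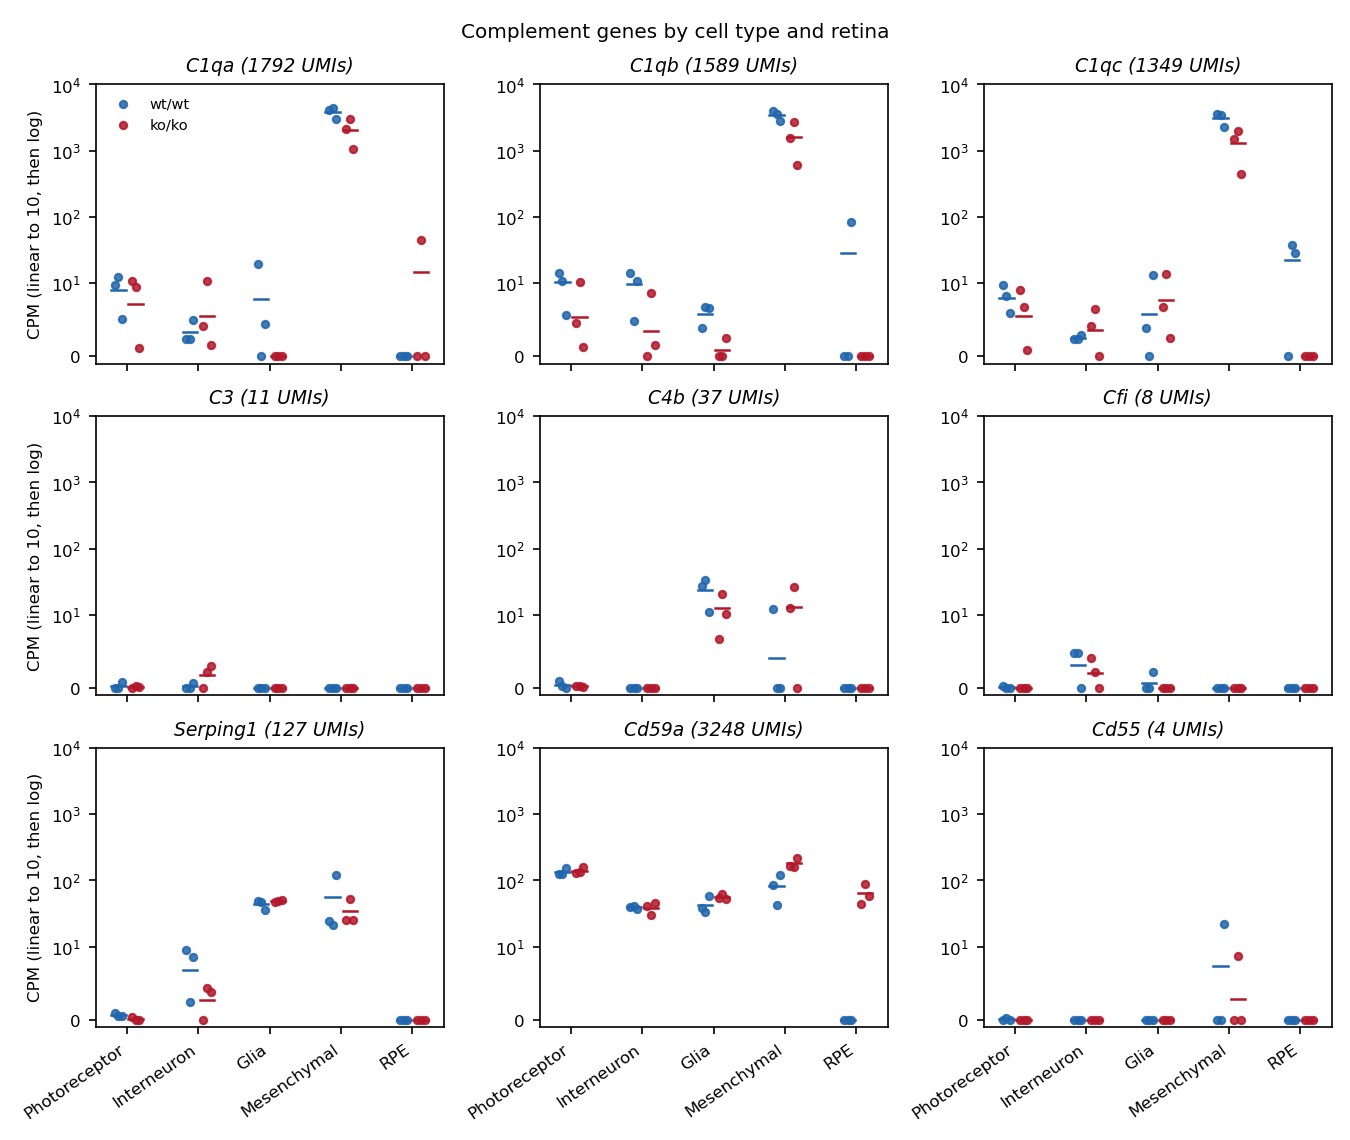
Level of each complement gene in CPM (linear up to 10, logarithmic above) in the 5 deposited cell types; each point is 1 retina, blue for wt/wt and red for ko/ko, and the short lines are means of 3. The 3 C1q genes stood above 400 CPM in mesenchymal cells of every retina and below 100 CPM elsewhere, Cd59a was counted in all types but had 0 UMIs in the RPE of the wt/wt retinas, and C3 and Cfi stayed below 5 CPM in every type, whereas Cd55 reached 22.1 CPM in mesenchymal cells of wt/wt replicate 3.

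Between genotypes the C1q genes were lower in the mesenchymal class of every ko/ko retina than in that of every wt/wt retina. C1qb was counted at 3976, 3639 and 2845 CPM in wt/wt and 1549, 2674 and 604 CPM in ko/ko retinas. C1qc was counted at 3559, 3415 and 2250 CPM in wt/wt and 1510, 1999 and 437 CPM in ko/ko retinas. Each of the 3 genes had an exact permutation p of 0.1, the smallest that 3 against 3 retinas allow, and 6.95% of the 863 genes with at least 100 UMIs in the class separated the genotypes in this direction. The log2 change, ko/ko over wt/wt, was -0.95 for C1qa (SE 0.36), -1.15 for C1qb (SE 0.44) and -1.26 for C1qc (SE 0.46) by edgeR's quasi-likelihood test. None passed after Benjamini-Hochberg adjustment over the 1717 genes tested in the class (adjusted p = 0.484 for each, edgeR), where 0.0% of genes were called, and 0 members were called by limma-voom or DESeq2 without a term for batch. At an unadjusted p under 0.05 stood all 4 members that passed the filter on low counts, the C1q genes and Cd59a, beside 8.74% of the genes tested, and the other 5 members had too few UMIs to be tested. Cd59a, with 7, 4 and 11 UMIs in wt/wt and 13, 18 and 17 in ko/ko retinas, passed that filter through the ko/ko group. Its place in this count is therefore no support. The 3 C1q genes were counted together in 77 of the 89 microglia-like cells. They are thus not 3 separate results, here or in the fits below, and the count is no test of the members as a set.

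With the batch of the labels as a covariate the C1q changes passed the threshold in the same class: -1.03 for C1qa (adjusted p = 0.0433), -1.30 for C1qb (adjusted p = 0.0324) and -1.43 for C1qc (adjusted p = 0.0272, all edgeR), beside 1.22% of the 1717 genes tested, and they passed it by limma-voom with the same covariate too. Of the genes called, 20 of 21 by edgeR and 30 of 35 by limma-voom were lower in ko/ko, so this direction was not particular to C1q. With the replicate number as a block 2 of the 4 members passed, C1qb and C1qc, beside 1.51% of the genes, and C1qa did not (-1.05, adjusted p = 0.0526, edgeR). Of the 26 genes called with the block, 25 were lower in ko/ko. Within batches, the 3 genes together differed by -1.97 on the log2 scale between the ko/ko and the wt/wt retina of batch 1 and by -0.85 between the 2 and 2 retinas of batch 2. In the fits without a term for batch the calls at an unadjusted p, rather than the direction, varied with single retinas. The fits with the covariate or the block were not repeated with a retina left out. Without wt/wt replicate 1 or without wt/wt replicate 2, 0 of the 4 members stayed at an unadjusted p under 0.05 (edgeR), beside 3.92% and 6.20% of all genes, and without ko/ko replicate 1 or without ko/ko replicate 3, 2 did, beside 6.41% and 6.79%. The changes themselves were -0.92, -1.05 and -1.15 for C1qa, C1qb and C1qc without wt/wt replicate 1 and -0.88, -1.15 and -1.21 without wt/wt replicate 2. They were smallest without ko/ko replicate 3, at -0.61, -0.74 and -0.83, and largest for each gene without ko/ko replicate 2, at -1.44, -1.83 and -1.80.

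The C1q level of the class is tied to its microglia-like cells, which held 4198 of its 4199 C1q UMIs. Their part in the change between genotypes was not tested. On average fewer such cells were counted in ko/ko retinas. They numbered 21, 24 and 13 in wt/wt and 8, 17 and 6 in ko/ko retinas (19.3 ± 5.7 against 10.3 ± 5.9, SD, n = 3, exact permutation p = 0.2), and the groups overlapped, with 7 fewer in ko/ko in batch 1 and a mean of 10 fewer in batch 2. As a share of the mesenchymal class they were 53.8%, 49.0% and 35.1% in wt/wt and 20.0%, 34.0% and 19.4% in ko/ko retinas, with every ko/ko retina below every wt/wt one (exact permutation p = 0.1). As a share of the UMIs of the class, on which a level in CPM depends, they were 52.0%, 44.0% and 31.1% in wt/wt and 20.9%, 31.7% and 11.6% in ko/ko retinas, and the groups overlapped (exact permutation p = 0.2). By number and by this share ko/ko replicate 2 stood above wt/wt replicate 3. Its C1q level in the class, the 3 genes together, was the lower (7671 against 8139 CPM). Summed over the class, the microglia list ranged from 17116 to 23611 CPM in wt/wt and from 4905 to 14623 CPM in ko/ko retinas, and the endothelial list from 7510 to 12429 CPM and from 13063 to 16809 CPM.

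Within the microglia-like cells the C1q level differed less. The 3 genes together were at 22366, 26039 and 26178 CPM in wt/wt and 24634, 24206 and 17986 CPM in ko/ko retinas, so that ko/ko replicate 3, with 6 such cells, was the lowest and the groups overlapped. The means were 24861 ± 2161 and 22275 ± 3721 CPM (SD, n = 3), a log2 change of -0.16 (exact permutation p = 0.5), which was 0.01 within batch 2 and -0.54 within batch 1. In the mesenchymal class as a whole the same measure changed by -1.07. Fitted on the microglia-like cells alone, a split chosen after earlier results were known, the log2 changes were 0.08 for C1qa (SE 0.21), -0.19 for C1qb (SE 0.25) and -0.28 for C1qc (SE 0.28), with an adjusted p of 0.996 for each (edgeR). In photoreceptors, which should lack C1q, the sum of the 3 genes was 33.7, 31.0 and 16.5 CPM in wt/wt and 24.2, 26.5 and 3.21 CPM in ko/ko retinas, and the lowest value again belonged to ko/ko replicate 3.

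**Figure D2:**
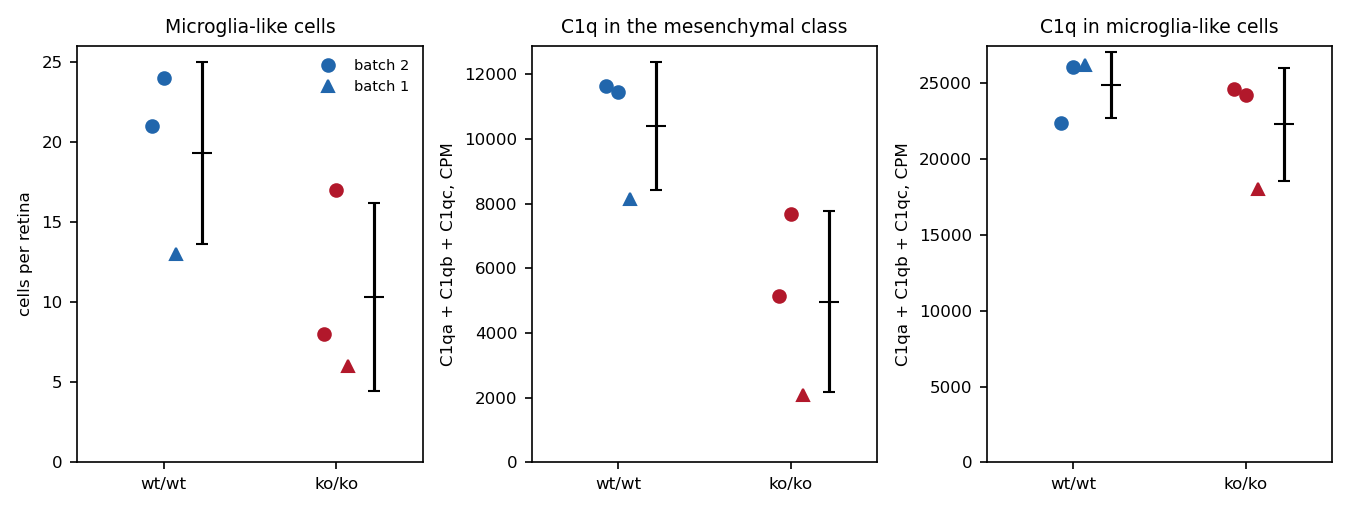
Microglia-like cells per retina (left), summed CPM of C1qa, C1qb and C1qc over the whole mesenchymal class (middle) and over its microglia-like cells (right); each point is 1 retina (circles batch 2, triangles batch 1), and black bars give mean and SD of 3. The class levels of wt/wt and ko/ko did not overlap, whereas the cell numbers and the level within microglia-like cells did.

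Of the central components, C4b was counted at a low level in glia and C3 in hardly any cell. C4b (ENSMUSG00000073418, chromosome 17, 34728380 to 34743882, minus strand) had 37 UMIs in typed cells, of which 25 lay in glia (67.6%, exact interval 50.2% to 82.0%), 7 in photoreceptors and 5 in microglia-like cells. Glia held C4b at 26.7, 33.5 and 11.0 CPM in wt/wt and 6.70, 20.6 and 10.1 CPM in ko/ko retinas, overlapping groups that did not differ beyond their spread (exact permutation p = 0.2), and ko/ko minus wt/wt was -0.883 CPM in batch 1 and -16.4 CPM in batch 2. Photoreceptors were at 0.352 ± 0.327 CPM (SD, n = 6), below glia in every retina. The mesenchymal class, the next type after glia, was at 8.56 ± 10.64 CPM against 18.12 ± 10.58 CPM in glia (SD, n = 6). Glia were higher in 4 of 6 retinas and the ranges overlapped. The microglia-like cells were at 27.98 ± 36.06 CPM (SD, n = 6), from their 5 UMIs.

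The 35 glia with at least 3 UMIs of a 6-gene astrocyte list, a split made after the values were seen, held 9 of the 25 C4b UMIs of glia. Per retina these cells were at 379.6, 72.5 and 108.2 CPM in wt/wt and 0, 260.1 and 0 CPM in ko/ko retinas, from 4 UMIs or fewer each, and the other 907 glia at 11.9, 29.5 and 6.90 CPM in wt/wt and 6.84, 7.26 and 10.4 CPM in ko/ko retinas. The cells with astrocyte UMIs were the higher in 4 of 6 retinas, and the 9 UMIs came from 6 cells. These cells also held a median of 80 UMIs of the Müller glia list against 4 of the astrocyte list, so they are named here by the UMIs that chose them. C4a, the close relative of C4b, had 32 UMIs, 29 of them in photoreceptors and 2 in glia. At the 3′ end of the C4b transcript, 83 of 411 windows of 90 bases in the last 500 bases occur unchanged in C4a, so some reads of the 2 genes cannot be told apart.

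C3 (ENSMUSG00000024164, chromosome 17, 57203970 to 57228136, minus strand), the component on which all pathways meet, had 11 UMIs in 27623411. Of these 6 lay in interneurons, 4 of them in ON bipolar-like cells, and 5 in photoreceptors, each in a cell of its own. Glia, mesenchymal and RPE cells held 0 UMIs, which allows up to 1.93, 5.60 and 19.8 CPM, and the 89 microglia-like cells held 0, which allows up to 17.3 CPM (3 counts of their total, counting error only). In batch 1, 4 UMIs were counted in the wt/wt and 5 in the ko/ko retina, and in batch 2 0 and 2. No supplier of C3 was detectable at this depth.

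**Figure D3:**
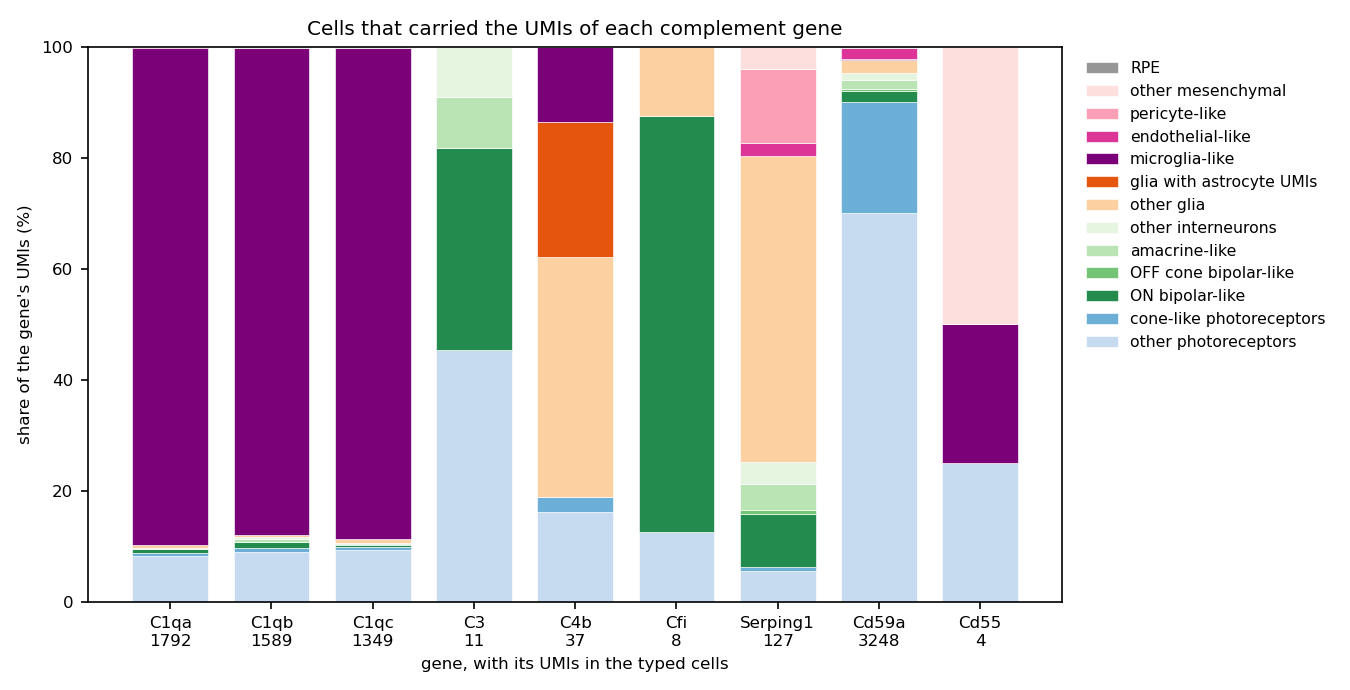
Share of the UMIs of each complement gene (%) that lay in each subclass of cells, with the number of UMIs under the gene name; bars are stacked and all 6 retinas are summed. Microglia-like cells carried most C1q, glia most C4b and Serping1, and photoreceptors most Cd59a, while the bars of C3, Cfi and Cd55 rest on 11, 8 and 4 UMIs.

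Of the inhibitors, Serping1 was counted mostly in glia and, within the mesenchymal class, mostly in pericyte-like cells. Serping1 (ENSMUSG00000023224, chromosome 2, 84765387 to 84775444, minus strand) had 127 UMIs, 70 in glia (55.1%, exact interval 46.0% to 64.0%), 25 in mesenchymal cells, 24 in interneurons, 8 in photoreceptors and 0 in the RPE. Its level in glia was 49.6, 46.9 and 35.3 CPM in wt/wt and 46.9, 48.2 and 50.7 CPM in ko/ko retinas, and the groups overlapped (exact permutation p = 0.4), with ko/ko higher by 15.4 CPM in batch 1 and a difference of -0.710 CPM in batch 2. The mesenchymal class was at 45.2 ± 39.0 CPM (SD, n = 6) and glia at 46.3 ± 5.6 CPM, and the order of the 2 types was not the same in all retinas. The mesenchymal mean was set by wt/wt replicate 3, at 121.3 CPM, and without it was 29.95 ± 12.78 CPM (SD, n = 5), a log2 lead of 0.69 for glia against 0.03 with all 6. Interneurons were at 4.76 ± 3.63 CPM and photoreceptors at 0.414 ± 0.379 CPM.

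Within the mesenchymal class 17 of the 25 Serping1 UMIs lay in the 25 pericyte-like cells, where 10 cells held it. Per retina their level was 191, 258 and 774 CPM in wt/wt and 0, 310 and 182 CPM in ko/ko retinas, from 9 UMIs or fewer in each. The 19 mesenchymal cells of no named kind held 5 UMIs, all in ko/ko replicates 1 and 2, at 173 and 293 CPM. Endothelial-like cells held 3 UMIs and microglia-like cells 0, which allows up to 17.3 CPM. In glia all 70 UMIs lay in cells with fewer than 3 astrocyte UMIs, at 47.0 CPM over their summed UMIs, and 0 lay in the 35 others, which allows up to 46.8 CPM there. Over all 46375 cells, with or without a type, Serping1 changed by -0.54 (SE 0.41) on the log2 scale between genotypes (adjusted p = 1.00, edgeR), with 5 members tested and 0 called there, beside 0.0% of 15330 genes, and 0 at an unadjusted p under 0.05, beside 0.659%.

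Cfi and Cd55 were near the limit of detection. Cfi (ENSMUSG00000058952, chromosome 3, 129835884 to 129875332, plus strand) had 8 UMIs, of which 6 lay in ON bipolar-like interneurons, 1 in glia and 1 in photoreceptors, each in a different cell. The 6 came from wt/wt replicates 1 and 2, with 2 each, and from ko/ko replicates 1 and 2, with 1 each. Cd55 (ENSMUSG00000026399, chromosome 1, 130439027 to 130462744, minus strand) had 4 UMIs, 3 in mesenchymal cells (22.1 CPM in wt/wt replicate 3 and 8.77 CPM in ko/ko replicate 2) and 1 in a photoreceptor, and its relative Cd55b had 0. Neither gene allows a comparison of genotypes at this depth.

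Of the 4 inhibitors among the 9 genes, Cd59a had the most UMIs, and most of them lay in photoreceptors. Cd59a (ENSMUSG00000032679, chromosome 2, 104095801 to 104115354, plus strand) had 3248 UMIs, 2926 of them in photoreceptors (90.1%, exact interval 89.0% to 91.1%). Per UMI of the cells photoreceptors did not stand above the mesenchymal class, since the levels were 136.7 ± 15.3 and 132.1 ± 62.5 CPM (SD, n = 6) and overlapped. Glia followed at 49.6 ± 11.2 CPM and interneurons at 39.0 ± 5.0 CPM, whose ranges of 33.5 to 61.9 CPM and 30.2 to 45.0 CPM overlapped. UMIs of rods were also counted in these types: the rod list ranged from 6584 to 15501 CPM in glia and from 10178 to 15255 CPM in interneurons, against 65813 to 103978 CPM in photoreceptors, and its part in the low levels of Cd59a there was not tested. Photoreceptors held Cd59a at 123.4, 123.3 and 152.8 CPM in wt/wt and 128.6, 133.5 and 158.5 CPM in ko/ko retinas, with the batch 1 retina the highest of each genotype. Its relative Cd59b had 39 UMIs, 14 in glia and 13 in photoreceptors, and shares 0 of 411 windows of 90 bases with the 3′ end of Cd59a.

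Cones differed from the other photoreceptors in Cd59a. In 870 cone-like photoreceptors, which were set apart after the values were known by at least 3 UMIs of a 10-gene cone list and more of it than of a rod list, Cd59a was at 317, 367 and 390 CPM in wt/wt and 361, 447 and 439 CPM in ko/ko retinas. In the other 41489 photoreceptors it was at 106.8, 101.1 and 122.1 CPM in wt/wt and 114.9, 108.3 and 138.6 CPM in ko/ko retinas. The cone-like cells were higher in 6 of 6 retinas and the ranges did not overlap, as was so in this direction for 7.76% of the 11489 genes with at least 100 UMIs in photoreceptors. The median depths were 1870 and 422 UMIs, and 41.3% of all cone-like and 5.08% of all other photoreceptors held a Cd59a UMI. After thinning to 500 UMIs, which left out shallower cells and so kept 828 of the cone-like and 15842 of the 41489 others, the shares were 16.6% and 5.58%.

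In the mesenchymal class 64 of the 70 Cd59a UMIs lay in endothelial-like cells, at 233, 84.2 and 204 CPM in wt/wt and 260, 259 and 294 CPM in ko/ko retinas. Every ko/ko retina was above every wt/wt one, from 4 to 17 UMIs each (exact permutation p = 0.1), as was so for 5.71% of the 1015 genes with at least 50 UMIs in these cells, which were set apart after earlier results were known. The difference was 89.6 CPM in batch 1 and 100.8 CPM in batch 2. The floor of 50 UMIs is lower than the 100 used for C1q in the class, which Cd59a did not reach. Its UMIs in endothelial-like cells numbered 6, 4 and 10 in wt/wt and 12, 15 and 17 in ko/ko retinas. It thus passed the floor of 50 mostly through the ko/ko group, and the share of 5.71% is no support. Microglia-like cells held 4 UMIs and pericyte-like cells 2. In the class as a whole Cd59a was at 85.9, 42.7 and 121.3 CPM in wt/wt and 166.4, 157.8 and 218.3 CPM in ko/ko retinas, without overlap (exact permutation p = 0.1), as were 9.12% of the 2137 genes with at least 50 UMIs in the class in this direction. The same limit holds for this share, since Cd59a had 7, 4 and 11 UMIs in wt/wt and 13, 18 and 17 in ko/ko retinas. The log2 change of Cd59a in the class was 1.06 (SE 0.41, adjusted p = 0.484, edgeR). The endothelial list of the class, given above, was also higher in every ko/ko retina. Without the microglia-like cells, in a fit added after the values were seen, the Cd59a change was 0.63 (SE 0.43, adjusted p = 0.997, edgeR). Within batches, Cd59a of the class was higher in ko/ko in both.

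In the other types the Cd59a change was small or rested on few UMIs. On the log2 scale it was 0.10 (SE 0.19) in photoreceptors, 0.01 (SE 0.28) in interneurons and 0.27 (SE 0.38) in glia. No member was called in these types by edgeR, and 0 of the 4 members tested in photoreceptors and of the 1 tested in interneurons and in glia was at an unadjusted p under 0.05, beside 0.835%, 1.12% and 1.23% of the 13053, 7698 and 4130 genes tested. In the RPE, where no member could be tested and 3.57% of 308 genes were at that p, Cd59a had 0 UMIs in the 3 wt/wt and 1, 2 and 1 UMIs in the ko/ko retinas. A test of whether the genotype change differed between the 5 types called 0.0636% of 6290 genes and gave an adjusted p of 1 for each of the 4 members tested (edgeR, retina as a block). The unadjusted p of this test was 0.0137 for Cd59a, 0.0567 for C1qa, 0.168 for C1qc and 0.645 for C1qb. No share of all genes at such a p was taken. The largest Cd59a term was that of the RPE, at 8.39 on the log2 scale, which rests on the few UMIs just given. Over all cells Cd59a was at 106.2, 108.4 and 114.4 CPM in wt/wt and 117.8, 120.3 and 129.3 CPM in ko/ko retinas, without overlap (exact permutation p = 0.1), as were 1.81% of the 13790 genes with at least 100 UMIs in this direction, and its log2 change there was 0.21 (SE 0.15, adjusted p = 1.00, edgeR). The rod list over all cells ranged from 54378 to 68809 CPM in wt/wt and from 66024 to 81200 CPM in ko/ko retinas, and its part in that difference was not tested.

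**Figure D4:**
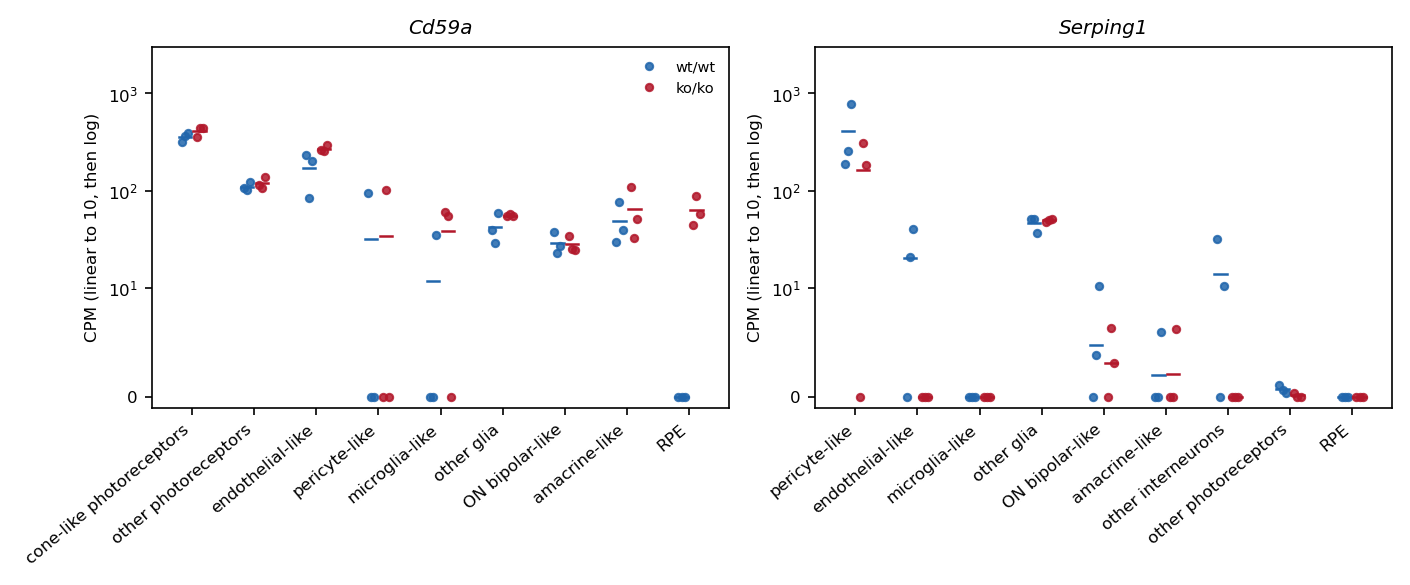
Cd59a (left) and Serping1 (right) in CPM (linear up to 10, logarithmic above) by subclass of cells; each point is 1 retina, blue for wt/wt and red for ko/ko, and the short lines are means of 3. Cd59a was highest in cone-like photoreceptors, with every retina above 300 CPM, and Serping1 had its highest mean over wt/wt retinas in pericyte-like cells, where 1 ko/ko retina was at 0.

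Among 45 further complement genes, 7 reached 100 UMIs in the typed cells, 28 had 1 to 99 and 10 had 0. The fluid-phase inhibitors of the membrane attack complex were the most counted. Clu (clusterin) was at 9188 ± 778 CPM in glia and 10082 ± 2216 CPM in the RPE (SD, n = 6), which overlapped, and at 127.2 ± 34.0 CPM in photoreceptors. Vtn (vitronectin) had 93.6% of its 37688 UMIs in photoreceptors, at 1644 ± 312 CPM, and reached 10173 ± 5907 CPM in the 25 pericyte-like cells. Vtn of the mesenchymal class was 0.93 higher in ko/ko on the log2 scale (SE 0.36, adjusted p = 0.484, edgeR). It was the 1 of 4 of these genes tested in the class with an unadjusted p under 0.05, beside 8.74% of all genes there. In the other types 6 or fewer of the 45 had enough UMIs to be tested, and 0 of those tested passed the adjusted threshold in any type by edgeR.

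Further regulators differed in where they lay. Susd4, a membrane-bound inhibitor, was at 56.4 ± 11.2 CPM in interneurons and 68.4 ± 16.2 CPM in cone-like photoreceptors against 2.35 ± 1.71 CPM in the other photoreceptors. Csmd3, a large membrane protein with complement control domains, had 89.3% of its 196 UMIs in interneurons, and its relatives Csmd1 and Csmd2, below 100 UMIs, had 23 of 31 and 44 of 65 there. Cr1l, the rodent regulator Crry that acts on C3 and C4 as Cd55 does, was at 111.5 ± 39.7 CPM in the mesenchymal class and 126.7 ± 62.8 CPM in its endothelial-like cells, against 5.01 ± 1.71 CPM in photoreceptors. Cfp (properdin), which stabilises the alternative pathway's enzyme, was low in all types, with 7.13 ± 1.69 CPM in photoreceptors, and Calr, mainly a chaperone, was at 170.9 ± 61.2 CPM there and at 321.9 ± 66.5 CPM in the mesenchymal class.

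The receptors of the list each had fewer than 100 UMIs and were placed after their values were seen. Of the anaphylatoxin receptors, C3ar1 had 28 of its 31 UMIs, C5ar1 42 of 48 and C5ar2 14 of 24 in microglia-like cells. Itgam and Itgb2, the chains of complement receptor 3, had 49 of 58 and 52 of 58 there, while Itgax and Vsig4, also receptors for fragments of C3, had 1 UMI each. Cr2, complement receptor 2, had 0 UMIs in microglia-like cells and 10 of its 25 in glia and 9 in interneurons. Cd93, once held to be a C1q receptor, had 57 of 70 UMIs in endothelial-like cells.

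Over the 30 sums of 6 retinas and 5 types, the genes most like C1qa were Selplg, Tmem119 and Laptm5 (Pearson r of log2(CPM + 10) 0.987, 0.985 and 0.985), for C1qb Laptm5, Tmem119 and Ctss, and for C1qc Fcer1g, Tmem119 and Fcgr3. All but Fcgr3 are in the microglia list. Serping1 was most like Tspan12, S100a6 and Adamts1 (0.952, 0.944 and 0.939), and Cd59a most like Nsun2, Trp53rka and Ddit4, at no more than 0.804. The sums of a retina share a library and differ in depth, so these values describe the pattern over types.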

How the data were processed

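Raw UMI counts of 52636 genes in 46375 cells of 6 mouse retinas were deposited by the authors in 1 table, not normalized, with a second table of sample, genotype, batch and cell type per cell. Per the study's methods and processing notes, reads were aligned to mm10 (GRCm38) with Cell Ranger 3.1.0 using exonic reads. The kit reads 3′ ends, so UMIs do not scale with transcript length. Cell identifiers were cell numbers (0 shared between retinas), and droplet barcodes were not analysed here. Identifiers were named for 52403 genes. 0 columns of samples were left unused. No doublet caller was run. A protocol text in the labels speaks of 1 sample per genotype, whereas the sample labels give 3, and the latter were used. Labels do not say whether retinas came from separate mice, so p values measure the spread between samples.

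Counts were summed per retina and type. The 3 ko/ko were compared with the 3 wt/wt sums by edgeR 4.0.16 (glmQLFit and glmQLFTest, TMM factors, filterByExpr), with Benjamini-Hochberg adjustment and a threshold of 0.05. The study used limma-voom, run here as an alternative (limma 3.58.1), beside DESeq2 1.42.0, RLE factors, no filter, batch covariates, the replicate number as a block, stricter cells, removal of the 5% of cells with the most UMIs per retina, and each retina left out. The tests were also run on simulated counts, from which no claim of calibration at 3 against 3 retinas is drawn. Levels by retina were tested by two-sided exact permutation (scipy 1.17.1, R 4.3.3, Python 3.11.15). Shares of UMIs have exact Clopper-Pearson 95% intervals and a count of 0 a limit of 3 counts, for counting error only. Named were the 9 members, of 45 other complement genes those with at least 100 UMIs and the relatives C4a, Cd55b and Cd59b, and for each member of at least 100 UMIs its 3 most like genes. Receptors of the list, Csmd1 and Csmd2 were added after their values were seen. Members, lists, tests and alternatives were chosen with earlier results of these data known.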

Additional observations from a re-analysis of the deposited data

Results flagged for a closer look

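The 629 cells without a type entered no comparison of a cell type, and entered only the sums over all cells. They held UMIs of 3 members above the 3 counts that a count of 0 allows. Cd59a had 35 UMIs in 32 of these cells, 16 in wt/wt and 19 in ko/ko retinas, or 92.3 CPM. C1qa had 5 UMIs and C1qb 4, all in wt/wt retinas and at no more than 3 in 1 cell, or 13.2 and 10.6 CPM.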

How the results depend on the processing

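Of 532 recomputed values 473 kept their direction, their side of the threshold or their size, and 216 of 222 log2 changes kept their direction. Some of these values could not move, as in the RPE, where no member was tested except with no filter. A log2 change was held to be kept by its direction and its side of the threshold, whatever its size. The totals are therefore no measure of robustness. The depth limits C3, C4b, Cfi and Cd55, and 3 retinas per group limit every exact test.

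Genes called rose from 0 in mesenchymal cells to 28 with no filter, 21 and 35 with the batch covariate in edgeR and limma-voom, 26 with the replicate block and 0 to 7 with a retina left out (7 without ko/ko replicate 2). In the RPE they rose to 1 by DESeq2, 3 with no filter, 3 and 5 with the batch covariate, 4 with the replicate block, 1 without the 5% of cells with the most UMIs and 0 to 2 with a retina left out, and with no filter to 1 in photoreceptors, in interneurons and over all cells. The labels do not say that replicate numbers pair samples. Correlations of deviations within a number were 0.0927, 0.231 and 0.446 in mesenchymal cells and 0.105, 0.340 and 0.577 in interneurons, where the replicate block called 0 genes. In every type numbers 2 and 3 (the latter being batch 1) correlated best with themselves and number 1, at -0.0741 to 0.105, did not.

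Members at an unadjusted p under 0.05 numbered 4 in mesenchymal cells, 0 without the 5% of cells with the most UMIs, 0 in microglia-like cells alone or without them, and 0 to 4 with a retina left out. With no filter, the batch covariate in either tool or the replicate block they numbered 1 in photoreceptors, beside 1.92% to 2.24% of all genes, and 3 over all cells, beside 1.26% to 3.14%, and 0 to 1 in both with a retina left out. With no filter 1 was found in glia and 1 in the RPE, beside 2.12% and 2.18% of all genes. Removal of the 5% of cells with the most UMIs left 14 to 22 mesenchymal cells per retina. In that class 191 genes and 3 members were then tested, against 1717 and 4 before, so its count of 0 rests on far fewer cells.

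The mesenchymal change of C1qa became -1.03 (edgeR) and -1.03 (limma-voom) with the batch covariate, that of C1qb -1.30 and -1.31 and -1.35 with the replicate block, and that of C1qc -1.43, -1.41 and -1.44, all at an adjusted p under the threshold. With the replicate block that of C1qa was -1.05 (adjusted p = 0.0526, edgeR), above it. In microglia-like cells alone the change of C1qa reversed to 0.083. That of Cd59a reversed in interneurons to -0.033 with stricter cells and ranged from -0.15 to 0.15 with a retina left out, and in photoreceptors from -0.0096 to 0.23. With a retina left out the photoreceptor change of C1qa ranged from -0.77 to 0.19, and by limma-voom it was -0.96. The causes were not tested.

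The log2 lead of C1qa moved from 8.52 to 6.83 without the 5% of cells with the most UMIs, which left 14 to 22 mesenchymal cells per retina, and to 9.30 in batch 1 alone. The mesenchymal shares of C1qa, C1qb and C1qc moved to 94.0%, 92.1% and 93.1% with stricter cells and to 100%, 99.9% and 99.8% after the photoreceptor rate was subtracted, and that of Cd59a in photoreceptors to 86.9% with stricter cells. The subtraction sets photoreceptors to 0 for every gene, so the rise of the C1q shares after it follows from the method and checks nothing. It leaves no value for Cd59a, whose leader it sets to 0. The share of C1q UMIs in microglia-like cells moved from 99.98% to 99.7% with at least 10 microglia UMIs and lay between 99.97% and 100% with a retina left out. The number of microglia-like cells stayed lower in ko/ko under every rule and retina left out, by 6.67 to 12.3 cells.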
